A study of Homo sapiens with 27 samples.

Results

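The genes described here are 28 genes of cholesterol synthesis, its control and sterol uptake, transport and storage, together with the enzymes of fatty acid synthesis FASN and ACACA. They were chosen by symbol from a list, with earlier results of these data known, and all 28 were found among the 60604 gene entries of the count table. By role they comprise 7 genes of the mevalonate steps (ACAT2, HMGCS1, MVK, PMVK, MVD, IDI1, FDPS), 3 of squalene formation and ring closure (FDFT1, SQLE, LSS), 8 that turn lanosterol into cholesterol (CYP51A1, TM7SF2, MSMO1, NSDHL, HSD17B7, EBP, SC5D, DHCR7), 3 of sterol sensing (INSIG1, SREBF2, SCAP), 5 of transport and storage (STARD4, NPC1, NPC2, NPC1L1, SOAT1) and the 2 of fatty acid synthesis. NPC1L1, an intestinal and hepatic cholesterol importer, reached at most 0.110 CPM (counts scaled to the same total in each library, with TMM factors between libraries), in control replicate 2, and did not pass the filter on low counts, so 27 genes were tested.

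Cells build cholesterol from acetyl-CoA through mevalonate, squalene and lanosterol. When sterol in the endoplasmic reticulum is low, the escort protein SCAP carries the transcription factor SREBP-2, the product of SREBF2, to the Golgi, where it is cut free to switch on the genes of the pathway. INSIG1 holds SCAP back when sterol is plentiful and is itself a target of SREBP, and oxysterols also act through LXR, a nuclear receptor that drives genes of sterol export and fatty acid desaturation. Endothelial cells take up lipoprotein cholesterol as well as making their own.

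The cells were EA.hy926, a hybrid between endothelium of the umbilical vein and the lung carcinoma line A549, labelled wild type (wt). Controls had no exposure, and the other 6 groups were exposed for 48 h to mesenchymal stromal cells (MSCs) of ASC52telo, a line from adipose tissue immortalised with hTERT, or to their products. Young MSCs were untreated, and senescent MSCs had received the DNA-crosslinking drug mitomycin C for 18 h (1.5 µg/mL) and were kept for 10 days afterwards. Exposure was to extracellular matrix left after cells had been stripped off for 5 min in 20 mM NH4OH with 0.5% Triton X-100 (ECM), to conditioned medium mixed 1:1 with endothelial medium (CM), or to the MSCs themselves in direct co-culture at 1:1. All cells were grown in DMEM/F12 with fetal bovine serum. As a model the groups are limited to 1 hybrid endothelial line and 1 immortalised MSC line. There were 4 libraries a group, and 3 in senescent co-culture, numbered 2 to 4. The comparisons ask what each route of exposure does to this gene set and whether senescence of the MSCs changes it.

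Replicate 1 stood apart, and its levels are given separately for some of the genes. In replicate 1 of the 5 groups without MSCs, COL1A1, a fibroblast collagen, lay between 1915 and 5135 CPM and TERT, carried by the MSC line, between 655 and 1298 CPM, and a list of 12 stromal genes took 0.575% to 1.02% of counts. In replicates 2 to 4 of those groups the same list took 0.00544% to 0.0121%, and in replicates 2 to 4 of co-culture 0.0237% to 0.0503%. Replicate 1 of young co-culture was the reverse, with 0.00483%, and its 84 ribosomal protein genes took 27.6% of counts against 5.68% to 12.3% in all libraries numbered 2 to 4. The endothelial markers PECAM1 and CDH5 were present in all 27 libraries, CLDN5 was at or near 0, and the list of 10 endothelial genes took 0.162% to 0.252% of counts without MSCs and 0.348% to 0.388% in co-culture (replicates 2 to 4). Total counts ran from 66320519 to 111512357 a library. Comparisons below use the 21 libraries numbered 2 to 4, 3 a group. Nothing in the labels says that these came from separate cultures, so p-values measure the spread between the libraries, which may be technical. The labels do not say whether endothelial cells were separated from MSCs before extraction, so in co-culture a change in endothelial cells and RNA of the MSCs cannot be told apart, nor can fewer cells and less RNA per cell.

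In control libraries the counts of the pathway differed from step to step. How reads with several matches were treated is not given, so low expression and reads lost in counting cannot be told apart. Per kilobase of merged exons, the highest level was that of FDPS, which makes farnesyl diphosphate, at 36.4 ± 1.39 CPM per kb (SD, n = 3), followed by the lysosomal sterol carrier NPC2 at 32.8 ± 2.51 and the mevalonate enzyme PMVK at 26.2 ± 1.5 CPM per kb. FASN had 24.7 ± 12, the widest SD of the set, since its 3 control libraries lay at 344, 120 and 229 CPM. INSIG1 ranked 18 of 28 at 5.46 ± 0.413 CPM per kb. At the lower end were LSS, the lanosterol cyclase, at 0.597 ± 0.174, ACACA, the acetyl-CoA carboxylase, at 0.0920 ± 0.0736, and NPC1L1 at 0.00974 ± 0.00997 CPM per kb. FDPS lay above PMVK by more than these SDs, while FDPS and NPC2, FDPS and FASN, and PMVK and FASN differed by less than their SDs added together.

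The group means of most genes lay within a narrow range. The ratio of the highest to the lowest group mean was 3.7 for INSIG1 and 2.25 for DHCR7, the last enzyme of one route to cholesterol, and lay between 1.24 (MVD) and 1.84 (FASN) for the others except ACACA. That gene reached 4.52, but at 0.292 to 1.32 CPM and with a median coefficient of variation of 52.7% between replicates, against 4.64% for SQLE. Young CM held the highest mean for 12 of the 27 genes and young co-culture for 9. The lowest mean was in young ECM for 9 genes and in senescent co-culture for 8.

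**Figure D1:**
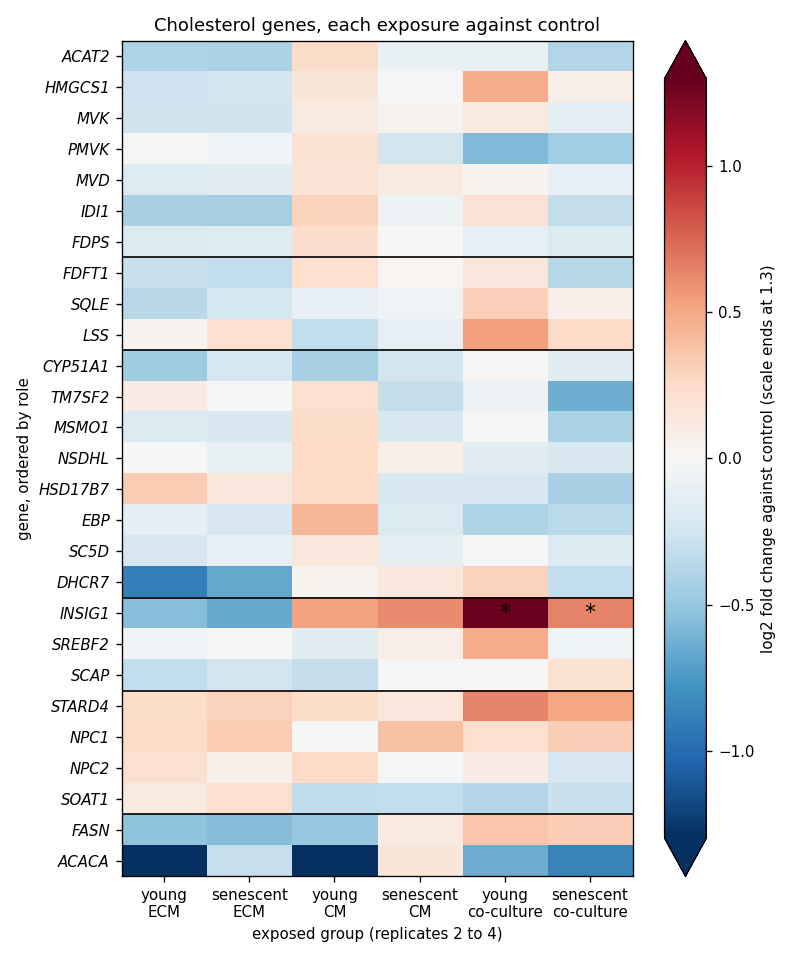
Heat map of the log2 fold change of each tested gene (rows, ordered by role, with lines between roles) in each of the 6 exposed groups (columns) against control, from edgeR on replicates 2 to 4. Red is higher and blue lower than control, the colour scale ends at 1.3, and a star marks an adjusted p under 0.05. INSIG1 in young and senescent co-culture carries the only stars. The sign of the senescent one turns when libraries are scaled by endothelial markers, most of them called higher in co-culture.

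The promoters of 4 genes are shown because INSIG1, DHCR7 and HMGCS1 rose in young co-culture against young ECM, and because SREBF2 holds the sole match of the set to a sterol element. SQLE and FDFT1 also rose there, but no window was found for them. HMGCS1 and DHCR7 each have a further window, not printed, without a match to either motif below. Each run is read 5′ to 3′ on the gene's strand from RefSeq (GRCh38.p14), within 250 bases before the RefSeq start and without bases that GENCODE 29 places in an exon. Capitals mark CCAAT, the box bound by NF-Y, or its complement ATTGG, and in SREBF2 also TCACNCCAC, a form of the sterol regulatory element.

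INSIG1 (chr7:155297628-155297775, + strand): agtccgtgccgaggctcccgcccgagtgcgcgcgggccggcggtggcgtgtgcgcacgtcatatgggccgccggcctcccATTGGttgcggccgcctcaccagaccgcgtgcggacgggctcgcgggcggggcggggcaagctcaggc

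HMGCS1 (chr5:43313513-43313662, - strand): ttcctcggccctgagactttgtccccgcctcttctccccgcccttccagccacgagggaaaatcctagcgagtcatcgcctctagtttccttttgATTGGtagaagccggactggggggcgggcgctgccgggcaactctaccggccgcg

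DHCR7 (chr11:71448436-71448643, - strand): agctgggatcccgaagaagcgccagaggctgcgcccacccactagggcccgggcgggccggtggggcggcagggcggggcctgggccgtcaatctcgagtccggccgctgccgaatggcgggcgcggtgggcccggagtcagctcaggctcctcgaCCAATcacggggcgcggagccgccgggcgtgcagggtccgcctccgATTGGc

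SREBF2 (chr22:41832855-41833078, + strand): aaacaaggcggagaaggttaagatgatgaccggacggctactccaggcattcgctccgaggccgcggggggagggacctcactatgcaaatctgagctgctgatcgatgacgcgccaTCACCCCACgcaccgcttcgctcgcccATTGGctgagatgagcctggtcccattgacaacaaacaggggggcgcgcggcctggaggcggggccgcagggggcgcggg

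Windows of 250 bases were found for 24 of the 28 genes, some with more than 1 start. CCAAT, on either strand, was present for 20 of the 24 genes (83.3%) and in 23 of their 32 windows (71.9%), against 32.0% of 35116 windows of the same length over all genes and 39.5% of 43 windows of the other pathway genes described further on. TCACNCCAC, on either strand, occurred in 1 of the 32 windows (3.12%), that of SREBF2, and in 310 of all windows (0.883%). No match of one motif overlapped a match of the other in the windows printed. These are matches of letters, not binding sites, and a window without them says nothing about a factor.

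INSIG1 (ENSG00000186480.13, GRCh38 chr7:155297776-155310235, + strand), the sterol-regulated brake on SREBP transport, was the gene of the 27 called most often over the 18 comparisons. Its levels in replicates 2, 3 and 4 (the order used for all values that follow) were 18.9, 19.2 and 21.7 CPM in control. They were 12.9, 12.8 and 14.8 CPM in young ECM and 12.5, 11.9 and 13.7 CPM in senescent ECM, so all 6 ECM libraries lay below all 3 controls. In CM they were 26.6, 23.4 and 33.7 CPM with young and 29.5, 24.4 and 37.5 CPM with senescent MSCs, all above control. In co-culture they were 41.7, 42.6 and 56.7 CPM with young and 30.5, 29.3 and 30.6 CPM with senescent MSCs. By mean level the order was young co-culture, senescent CM and senescent co-culture close together, young CM, control, young ECM and senescent ECM, and the libraries overlapped between senescent CM, senescent co-culture and young CM and between both ECM groups. Replicate 1 did not keep that order: it held 52.6 CPM in control, 69.4 and 67.3 in young and senescent ECM, 96.2 in both CM groups and 40.5 in young co-culture.

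**Figure D2:**
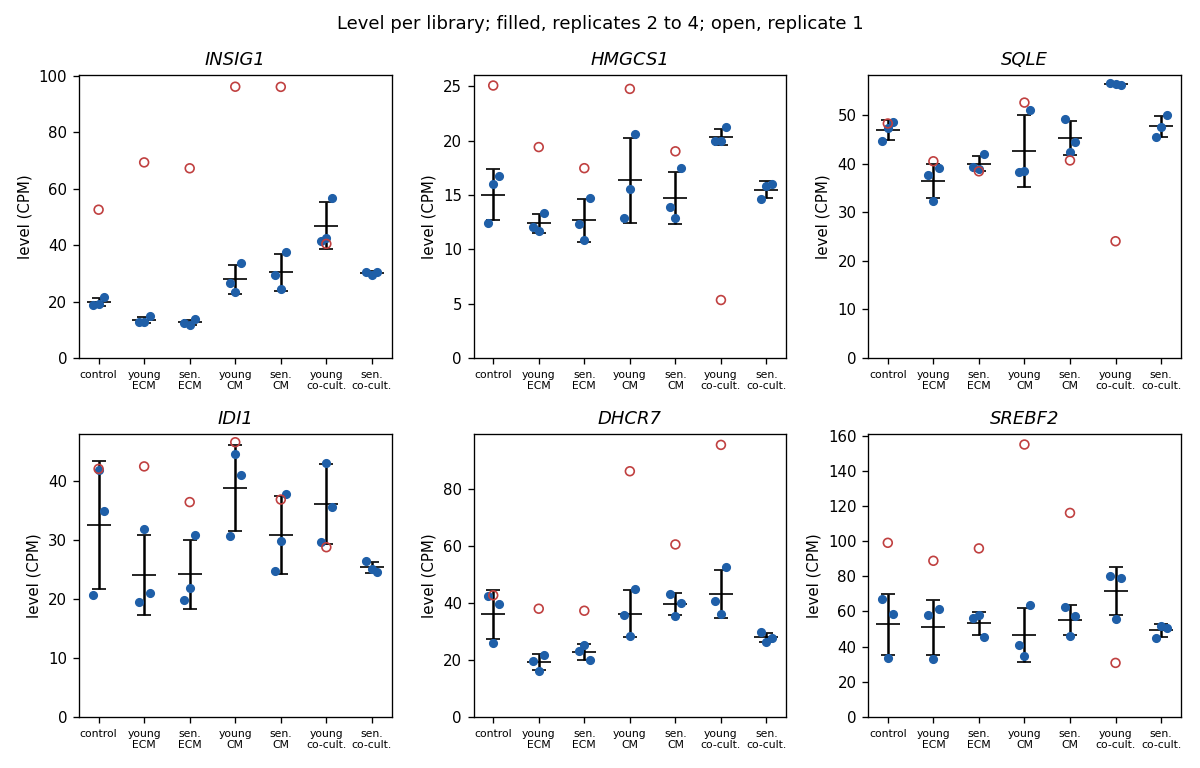
Levels in CPM (vertical axes, from 0) of INSIG1, HMGCS1, SQLE, IDI1, DHCR7 and SREBF2 in each library of the 7 groups; filled points are replicates 2 to 4, bars their mean ± SD, and open points replicate 1. The INSIG1 panel runs from 11.9 CPM in senescent ECM to 56.7 CPM in young co-culture among the filled points, and the open point of each of the 5 groups without MSCs lies above the filled points of its own group.

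On MSC matrix no gene of the 27 passed against control in the fit without a replicate block, and most estimates lay slightly below 0. With the replicate number as a block over control, ECM and CM together, DHCR7 and INSIG1 passed as lower on young ECM (2 of 27). Same-numbered libraries of control and young ECM deviated together (correlations 0.262 to 0.521). Those of control and senescent ECM did not all do so (-0.063 to 0.4). For counts at an unadjusted p, with the block or with DESeq2, here and below, the share of all genes is not given. With young ECM 0 of 27 passed an adjusted p of 0.05 (edgeR; 4 at an unadjusted p under 0.05; DESeq2 called DHCR7 and ACACA lower), where 0.649% of all 18015 genes tested passed. With senescent ECM 0 of 27 passed (edgeR; 3 unadjusted; DESeq2 called INSIG1 lower), where 0.3% of all genes passed. Estimates were negative for 20 of 27 genes with either matrix, with medians of -0.18 and -0.20 on the log2 scale against 0.00 and -0.01 over all genes, and negative for 7 of 7 mevalonate genes in both. The medians were -0.071 and -0.084 with replicate 1 included, and the senescent one was -0.124 without senescent ECM replicate 2. The 4 tested transport genes had positive estimates in both, from 0.06 to 0.33.

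DHCR7 (ENSG00000172893.17, chr11:71428193-71452868, - strand), which reduces 7-dehydrocholesterol, came nearest to a call on young ECM. Its levels were 42.4, 26.0 and 39.6 CPM in control, 19.6, 16.2 and 21.7 CPM in young ECM and 23, 25.4 and 19.9 CPM in senescent ECM. All ECM libraries lay below all controls, and the log2 difference was -0.90 ± 0.20 (SE; adjusted p = 0.0571) with young and -0.66 ± 0.20 (adjusted p = 0.268) with senescent matrix; without control replicate 3, the lowest control, the young difference passed (and without control replicate 2 that of ACACA). INSIG1 differed by -0.56 ± 0.17 (adjusted p = 0.207) and -0.65 ± 0.17 (adjusted p = 0.143). SQLE, the squalene epoxidase and a rate-setting enzyme of the pathway, had 44.6, 47.5 and 48.7 CPM in control, 37.8, 32.4 and 39.1 in young ECM and 39.2, 39.0 and 41.9 in senescent ECM, again below all controls, with adjusted p = 0.426 and 0.925. Among 32 other genes of the pathway, 1 passed in each ECM comparison: TMEM97, a sterol-responsive membrane protein of the endoplasmic reticulum, fell by 0.79 ± 0.14 (adjusted p = 0.0138) on young and by 0.77 ± 0.14 (adjusted p = 0.0276) on senescent ECM. TMEM97 had 59.2, 46.9 and 61.7 CPM in control. It had 31.7, 30.2 and 34.5 in young ECM and 34.1, 30.7 and 33.7 in senescent ECM, with no overlap with control. Replicate 1 showed no such fall, at 40.0 CPM in control, 40.7 in young ECM and 39.7 in senescent ECM. With replicate 1 included the young difference was -0.58 (edgeR, adjusted p = 0.756). Leaving out 1 library ended the young call in 3 of 6 cases (young ECM replicate 2 or 4, control replicate 4; adjusted p up to 0.113) and the senescent call in 5 of 6, all but control replicate 3 (adjusted p up to 0.227).

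Conditioned medium gave no called change among the 27 genes either. With young CM 0 of 27 passed (edgeR; 2 unadjusted; 0 with DESeq2), as did 0% of all genes. With senescent CM 0 of 27 passed (edgeR; 1 unadjusted; DESeq2 called INSIG1 higher), where 0.505% of all genes passed. Young CM had positive estimates for 19 of 27 genes (median 0.18) and for 7 of 7 mevalonate genes, and senescent CM for 12 of 27 (median -0.02), against medians of 0.01 and -0.01 over all genes. The young median was 0.103 without young CM replicate 2, 0.114 without control replicate 2 and 0.104 with library totals. INSIG1 was 0.52 ± 0.17 higher on the log2 scale with young CM (adjusted p = 0.86) and 0.62 ± 0.17 with senescent CM (adjusted p = 0.148). IDI1, which isomerises isopentenyl diphosphate, shows the spread behind these numbers: 20.6, 41.9 and 34.8 CPM in control, 30.6, 44.6 and 41.1 in young CM, 24.7, 29.8 and 37.8 in senescent CM, 19.4, 31.8 and 21.0 in young ECM, and 19.8, 21.9 and 30.8 in senescent ECM. Its groups overlapped throughout. Of the other pathway genes, 1 of 32 passed with senescent CM and 0 of 32 with young CM. ABCG1, an LXR-driven sterol exporter, stood at 0.698, 0.439 and 0.386 CPM in control and at 1.60, 1.63 and 1.70 CPM with senescent CM, a rise of 1.69 ± 0.28 (adjusted p = 0.012) on the log2 scale; it was past the threshold in 2 of 6 fits that left out a library, those without replicate 2 of either group (adjusted p up to 0.0849).

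In direct co-culture INSIG1 was the 1 gene of the 27 past the threshold in the fit without a replicate block. It was higher than control with either kind of MSC. The senescent difference turned negative when libraries were scaled by endothelial markers, most of which were themselves called higher in co-culture. With young MSCs 1 gene was called higher and 0 lower, and with senescent MSCs again 1 higher and 0 lower (3.7% of the 27 in each), where 9.68% and 8.05% of all 17729 genes passed. With the block, fitted over control and both co-cultures, 4 passed with young MSCs: INSIG1, HMGCS1 and STARD4 higher and PMVK lower. Same-numbered libraries of control and young co-culture deviated together (correlations 0.11 to 0.521). Those of senescent co-culture did not all do so, at -0.115 to 0.169 with control and -0.208 to 0.195 with young co-culture. INSIG1 rose by 1.28 ± 0.14 on the log2 scale with young MSCs (adjusted p = 0.000262) and by 0.64 ± 0.14 with senescent MSCs (adjusted p = 0.0158). The young call held without any 1 of the 6 libraries, and the senescent call ended without any 1 of the 3 senescent co-culture libraries or without control replicate 4, with adjusted p up to 0.08 and log2 differences of 0.60 to 0.65. Without control replicate 2 the senescent count was 3 (ACAT2 and MSMO1 lower, INSIG1 higher), and without control replicate 3 it was 2 (INSIG1 and STARD4 higher). Neither call held with the endothelial list as the yardstick. Of that list's 9 tested genes, 8 were themselves called higher with young and 7 with senescent MSCs. The endothelial list as the yardstick takes the median of all genes to -0.97 and -1.01. With it the INSIG1 difference was 0.29 (adjusted p = 0.124) with young and -0.39 (adjusted p = 0.0469) with senescent MSCs, both above that median. Of the 27 genes, 24 and 27 came out lower, but the share of all genes that did so is not given here. With replicate 1 included, INSIG1 was 0.73 higher (adjusted p = 0.406) and 0.11 higher (adjusted p = 1).

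Other members were near the threshold in young co-culture, in both directions. There 16 of 27 estimates were positive (median 0.04, and 0.012 without young co-culture replicate 4), and 7 genes had an unadjusted p under 0.05. DESeq2 called 4, and the share of all genes is given for neither count. HMGCS1 (ENSG00000112972.15, chr5:43289395-43313512, - strand), which makes HMG-CoA, had 12.4, 16 and 16.7 CPM in control and 19.9, 20.0 and 21.2 in young co-culture, with no overlap and a log2 difference of 0.48 ± 0.14 (adjusted p = 0.0509). PMVK (ENSG00000163344.6, chr1:154924734-154936991, - strand), the phosphomevalonate kinase, lay the other way, at 34.2, 31.3 and 34.9 CPM in control and 18.8, 23.2 and 23.5 in young co-culture, -0.58 ± 0.17 (adjusted p = 0.0512). STARD4, a cytosolic sterol carrier and SREBP-2 target, had 29.8, 58.0 and 48.5 CPM in control against 64.4, 67.7 and 74.0 (0.64 ± 0.20, adjusted p = 0.0757). SQLE had 56.7, 56.4 and 56.2 CPM in young co-culture, all above control (0.31 ± 0.11, adjusted p = 0.124). Without control replicate 3, the 5 genes INSIG1, HMGCS1, PMVK, STARD4 and SOAT1 passed in place of 1.

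With senescent MSCs 19 of 27 estimates were negative (median -0.18, against 0.02 over all genes), and 9 genes had an unadjusted p under 0.05. DESeq2 called 3, and again the share of all genes is given for neither count. All 8 genes from lanosterol to cholesterol had negative estimates, with a median of -0.33. For 10 of 27 genes (37.0%) all 3 libraries lay below all 3 controls, where 12.6% of all genes did. The nearest to a call was TM7SF2, a sterol C14 reductase, at 3.48, 2.66 and 2.73 CPM in control and 1.91, 2.16 and 1.47 CPM in senescent co-culture (-0.63 ± 0.19, adjusted p = 0.0738). FDFT1, the squalene synthase, had 103, 114 and 120 CPM in control and 82.8, 87.7 and 81.8 in senescent co-culture (-0.37 ± 0.13, adjusted p = 0.124). MSMO1, a C4 sterol demethylase, had 24.6, 33.0 and 32.4 CPM in control and 21.5, 22.9 and 21.2 in senescent co-culture (-0.41 ± 0.15, adjusted p = 0.139).

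Among 32 other genes of sterol and fatty acid metabolism, 9 were higher and 0 lower with young MSCs, and 6 higher and 0 lower with senescent MSCs, against the backgrounds above; scaled by endothelial markers, ACSL3, FADS1, FADS2 and GRAMD1B turned negative with young and MYLIP and RNF145 with senescent MSCs. Of the calls not described further, ACSL3 passed in 5 of 6 fits that left out a library (adjusted p up to 0.0538), FADS1 in 3 (up to 0.124) and FADS2 in 3 (up to 0.112) with young MSCs, and RNF145 in 1 of 6 (up to 0.189) with senescent MSCs. By role, with young and senescent MSCs, the higher genes were 1 and 2 of 7 in SREBP processing and feedback, 0 and 0 of 5 synthesis partners, 2 and 1 of 7 in uptake and transport, 3 and 3 of 5 on the LXR side, and 3 and 0 of 8 on the fatty acid side. ABCG1 had 4.09, 3.38 and 2.97 CPM with young and 4.29, 5.42 and 2.85 with senescent MSCs, a rise of 2.80 ± 0.29 (adjusted p = 0.000162) and of 3.08 ± 0.30 (adjusted p = 6.97e-05). MYLIP, the LXR-induced ubiquitin ligase of lipoprotein receptors, had 3.65, 4.46 and 4.31 CPM in control, 9.54, 8.74 and 11 with young and 7.74, 7.46 and 8.87 with senescent MSCs. It rose by 1.28 ± 0.15 (adjusted p = 0.00035) and 1.00 ± 0.15 (adjusted p = 0.00153), which came to 0.277 (adjusted p = 0.18) and -0.04 (adjusted p = 0.845) with the endothelial yardstick. LPCAT3, which puts polyunsaturated chains into phospholipids, rose by 1.35 ± 0.16 (adjusted p = 0.000443) and 1.07 ± 0.16 (adjusted p = 0.00169), and neither passed with that yardstick (0.366, adjusted p = 0.066, and 0.052, adjusted p = 0.781). SREBF1, the gene of SREBP-1, had 29.6, 10.9 and 19.1 CPM in control, 66.9, 46.7 and 66.6 with young and 47.6, 52.6 and 45.2 with senescent MSCs, up by 1.63 ± 0.29 (adjusted p = 0.0045) and 1.33 ± 0.29 (adjusted p = 0.0132); the senescent call ended without senescent co-culture replicate 3 or control replicate 4 (adjusted p up to 0.0694) and with the endothelial yardstick (0.334, adjusted p = 0.215), where the young one was 0.669 (adjusted p = 0.0231).

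SCD, the stearoyl-CoA desaturase, rose by 1.42 ± 0.20 (adjusted p = 0.00116) with young MSCs, and its levels were 43.7, 29.5 and 45.1 CPM in control, 101, 78.0 and 128 with young and 48.1, 52.1 and 58.0 with senescent MSCs. GRAMD1B, which moves sterol from plasma membrane to endoplasmic reticulum, rose by 0.80 ± 0.17 (adjusted p = 0.0114), which came to -0.18 with the endothelial yardstick, and by 1.39 ± 0.17 (adjusted p = 0.000305). The young GRAMD1B call ended without young co-culture replicate 2 or 4 (adjusted p up to 0.0568). With that yardstick ABCG1 was 1.82 and 2.06 higher, SCD 0.448 higher with young (adjusted p = 0.0339) and GRAMD1B 0.376 higher with senescent MSCs (adjusted p = 0.0367), against the shifted medians of all genes. Stromal markers moved with all of these: genes of the stromal list made up 0.0237% to 0.0503% of counts in co-culture and 0.00544% to 0.0121% without MSCs, 11 of 12 of its genes were higher in each co-culture comparison, COL1A1 reached 47.8 to 165 CPM and TERT 2.97 to 7.91 CPM. Their part in these results was not tested.

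**Figure D3:**
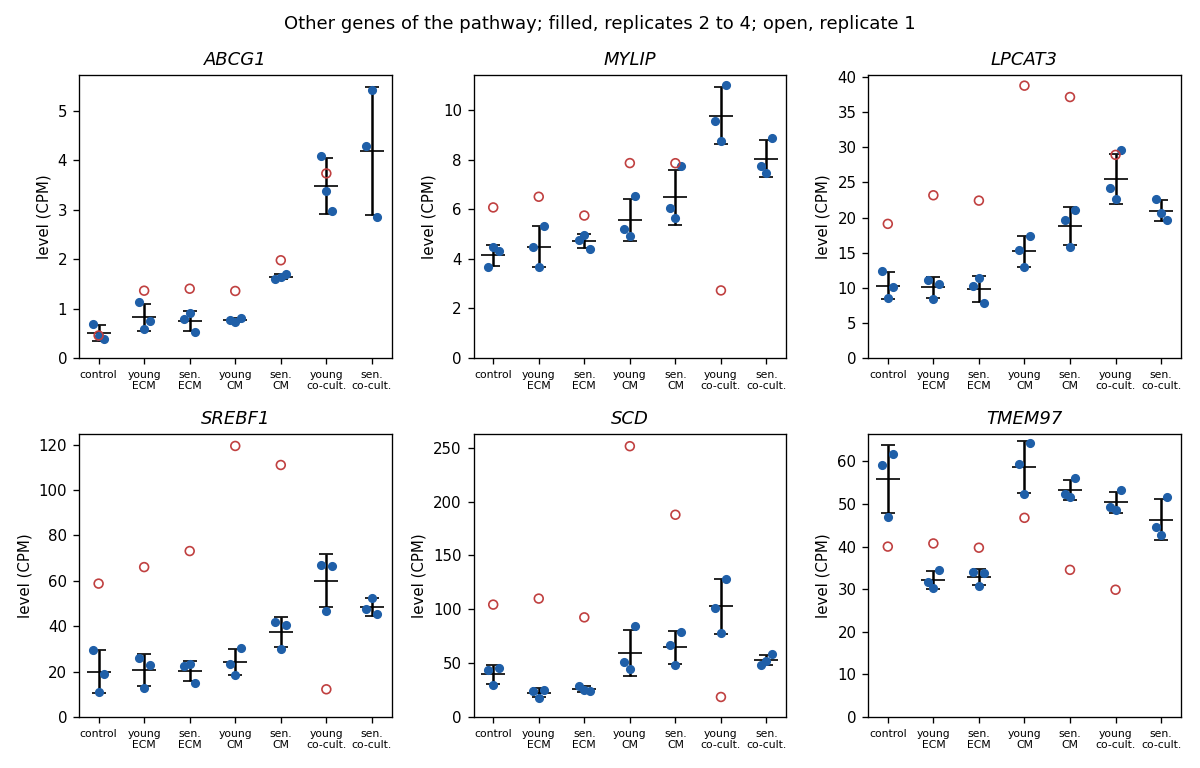
Levels in CPM (vertical axes, from 0) of ABCG1, MYLIP, LPCAT3, SREBF1, SCD and TMEM97 in each library of the 7 groups; filled points are replicates 2 to 4, bars their mean ± SD, and open points replicate 1. The filled points of both co-culture groups lie above control for ABCG1, MYLIP, LPCAT3, SREBF1 and SCD on this scale. Scaled by endothelial markers, most of them called higher in co-culture, the MYLIP difference with senescent MSCs turns negative. For TMEM97 the filled points of both ECM groups lie below control.

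Whether the MSCs were senescent or young made no difference past the edgeR threshold to any of the 27 genes by any route. On ECM 0 of 27 passed (edgeR; 1 unadjusted; 0 with DESeq2), as did 0% of all genes, and the median was 0.01. In CM 0 of 27 passed (edgeR; 6 unadjusted; 0 with DESeq2), where 0.0167% of all genes passed. There 7 of 7 mevalonate genes had negative estimates, with a median of -0.23 against -0.03 over all genes. In co-culture 0 of 27 passed (edgeR; 8 unadjusted; DESeq2 called FDFT1 and INSIG1 lower), where 0.395% of all genes passed.

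In co-culture the estimates leaned one way. They were negative for 22 of 27 genes, with a median of -0.22 against 0.00 over all genes (-0.133 without young co-culture replicate 4), and for 12 of 27 (44.4%) all 3 senescent libraries lay below all 3 young ones, where 6.7% of all genes did. INSIG1 was 0.63 ± 0.14 lower on the log2 scale (95% interval -0.91 to -0.35, adjusted p = 0.132), FDFT1 0.52 ± 0.13 lower (adjusted p = 0.24) and DHCR7 0.62 ± 0.19 lower (adjusted p = 0.448). DHCR7 had 40.9, 36.1 and 52.5 CPM in young and 29.7, 26.3 and 27.7 in senescent co-culture. FDFT1 had 104, 124 and 134 CPM in young co-culture against the 82.8, 87.7 and 81.8 above. HMGCS1 had 14.6, 15.8 and 16.04 CPM in senescent co-culture, all below young (-0.39 ± 0.14, adjusted p = 0.616), as had IDI1, with 29.6, 43.1 and 35.6 in young and 26.4, 25.1 and 24.6 in senescent co-culture (-0.50 ± 0.23, adjusted p = 0.901). SREBF2 (ENSG00000198911.12, chr22:41833079-41907308, + strand) had 80.3, 55.7 and 78.9 CPM in young and 44.7, 51.9 and 50.7 in senescent co-culture (-0.54 ± 0.23, adjusted p = 0.81). Its 5 other groups all overlapped each other, at 66.8, 33.4 and 58.2 CPM in control, 58.0, 33.1 and 61.4 in young ECM, 56.3, 57.7 and 45.5 in senescent ECM, 41.0, 34.7 and 63.7 in young CM and 62.6, 46.0 and 57.5 in senescent CM. SCAP, the partner of SREBP-2, had 80.5, 64.6 and 86.0 CPM in young and 85.1, 96.2 and 79.0 in senescent co-culture (0.18 ± 0.18, adjusted p = 1).

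The effect of senescence was not shown to differ between routes. The difference of differences was past the threshold for 0 of 27 genes between CM and ECM (0 unadjusted), co-culture and CM (5 unadjusted) and co-culture and ECM (5 unadjusted), by edgeR and by DESeq2. Over all genes 0%, 0.103% and 0.0487% passed. The smallest unadjusted p was that of INSIG1 between co-culture and CM, -0.74 ± 0.22 on the log2 scale (adjusted p = 0.38). Between both co-cultures the stromal list differed too: 5 of its 12 genes were called higher with senescent MSCs and 0 lower. Estimates were positive for 10 of the 12 and negative for 2. COL1A1 lay at 71.2, 59.9 and 47.8 CPM with young and at 165, 133 and 117 with senescent MSCs. TERT, carried by the MSC line, lay the other way, at 7.91, 6.26 and 6.01 CPM with young and 4.38, 3.86 and 2.97 with senescent MSCs. The part of the stromal list in the lean of the cholesterol genes was not tested.

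**Figure D4:**
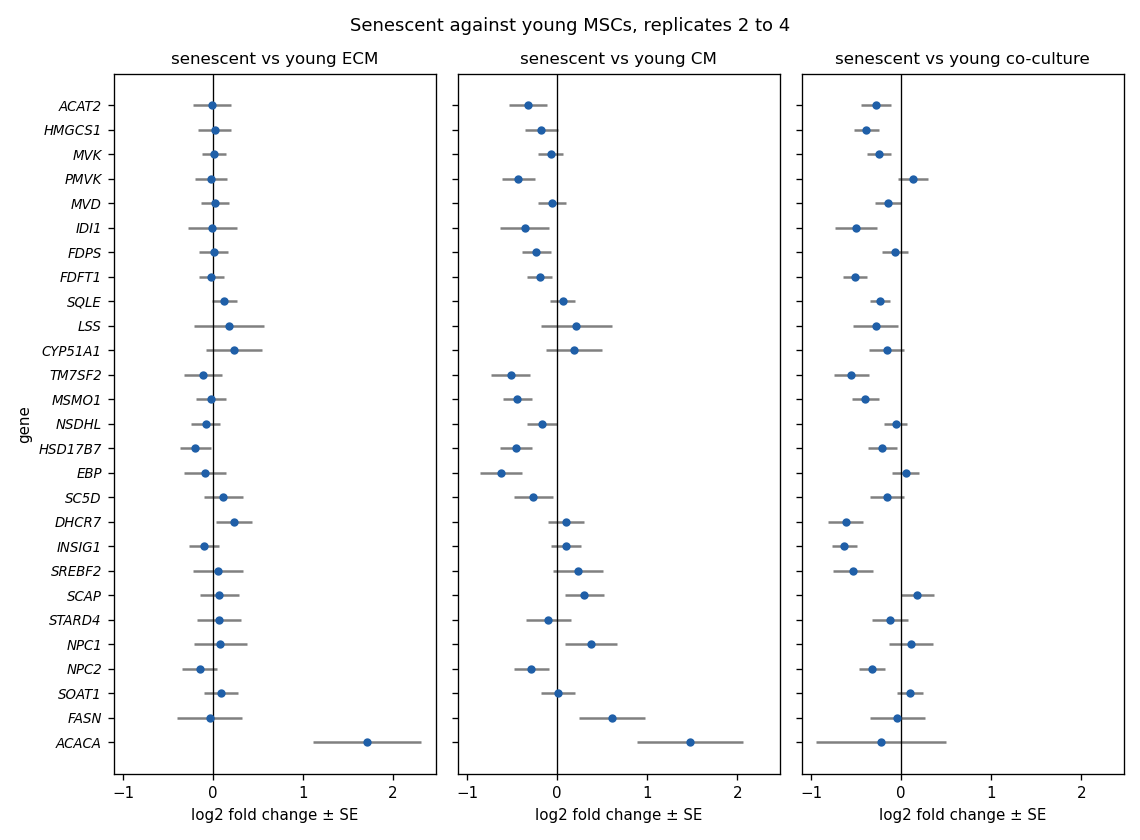
Log2 fold change ± SE (horizontal axes) of each tested gene (vertical axis, by role) between senescent and young MSCs, in 3 panels for ECM, CM and co-culture, 3 libraries a group. Points lie on both sides of 0 on ECM (15 positive, 12 negative) and mostly left of it in co-culture (5 positive, 22 negative); none passed the test.

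CM and ECM of the same MSCs differed at INSIG1 and DHCR7. With young MSCs 2 of 27 genes were higher in CM (7.41%), where 3.35% of all genes passed, and with senescent MSCs again 2 higher and 0 lower, where 4.9% passed. INSIG1 was 1.07 ± 0.17 higher (adjusted p = 0.00213) with young and 1.27 ± 0.17 higher (adjusted p = 0.000349) with senescent MSCs, and both calls held without any 1 of their 6 libraries. DHCR7 had 35.7, 28.4 and 44.8 CPM in young CM and 43.0, 35.6 and 40.2 in senescent CM, above all libraries of the matching ECM group. It was higher by 0.95 ± 0.20 (adjusted p = 0.0162) and 0.81 ± 0.20 (adjusted p = 0.0279). The first call ended without young ECM replicate 2, young CM replicate 2 or young CM replicate 4 (adjusted p up to 0.0671), and the second without any 1 of its 6 libraries (0.0588 to 0.132).

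With young MSCs, estimates of the other genes also lay mostly above ECM: 21 of 27 were positive, among them 7 of 7 mevalonate genes with a median of 0.41, and the median of the set was 0.27 against 0.03 over all genes. For 7 of 27 genes (25.9%) all young CM libraries lay above all young ECM libraries, where 7.51% of all genes did. An unadjusted p under 0.05 (edgeR) was found for 12 of 27, but the share of all genes at that limit is not given here. Leaving out 1 library gave counts of 1 to 8 in place of 2, with 8 without young ECM replicate 3. In the other pathway list 3 of 32 genes were higher with young MSCs (TMEM97 by 0.90, SCD by 1.45 and FADS1, a desaturase, by 0.56 on the log2 scale) and 5 of 32 with senescent MSCs (TMEM97 0.71, SCD 1.33, LPCAT3 0.94, ABCG1 1.14 and the desaturase FADS2 0.97); the FADS1 call ended without any 1 of its 6 libraries. With senescent MSCs the ABCG1 call ended in 5 of 6 such fits (adjusted p up to 0.127), that of FADS2 in 4 (up to 0.0908) and that of LPCAT3 in 2 (up to 0.0526). Of 5 epithelial genes, 3 (KRT7, KRT8 and KRT18) were higher in CM than on ECM with either kind of MSC. The other 2, KRT19 and EPCAM, had negative estimates and reached at most 0.206 and 1.15 CPM in control, ECM and CM (replicates 2 to 4). Together the 5 took 0.107% to 0.128% of counts on ECM, 0.210% to 0.254% in control and 0.350% to 0.551% in CM. The part of these 3 keratins in the results was not tested.

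Young co-culture differed from young CM at 4 of 27 genes (14.8%), 2 in each direction, where 11.6% of all 18492 genes passed. INSIG1 was 0.73 ± 0.15 higher (adjusted p = 0.0053). SQLE had 38.3, 38.5 and 51.2 CPM in young CM, below all co-culture libraries, and was 0.38 ± 0.12 higher in co-culture (adjusted p = 0.0387). PMVK had 46.1, 36.8 and 29.2 CPM in young CM and was 0.80 ± 0.18 lower in co-culture (adjusted p = 0.00896). EBP (ENSG00000147155.11, chrX:48521158-48528716, + strand), the sterol isomerase, had 40.6, 30.8 and 21.7 CPM in young CM and 14.5, 20.1 and 17.4 in co-culture, lower by 0.87 ± 0.22 (adjusted p = 0.0164). Without young CM replicate 2, whose ribosomal protein share was 12%, the EBP difference was -0.63 (adjusted p = 0.135) and INSIG1 alone passed. INSIG1 alone also passed without young co-culture replicate 2, while 10 genes passed without young CM replicate 4. Over the 6 fits that left out a library SQLE passed in 1 (adjusted p up to 0.174), EBP in 2 (up to 0.135) and PMVK in 4 (up to 0.0752). EBP had 22.7, 24.8 and 23.1 CPM in control, 16.2, 30.3 and 18.1 in young ECM, 19.1, 20.7 and 21.6 in senescent ECM, 18.6, 22.5 and 20.7 in senescent CM and 18.0, 19.8 and 15.8 in senescent co-culture. With senescent MSCs 0 of 27 differed between co-culture and CM (edgeR; 3 unadjusted; DESeq2 called FDFT1 lower), where 2.1% of all genes passed, and INSIG1 differed by -0.01 (95% interval -0.31 to 0.29). Of the other 32 genes, 9 were higher and 1 lower with young MSCs and 2 higher with senescent MSCs, ABCG1 by 2.15 and 1.35 on the log2 scale; its senescent call ended without senescent co-culture replicate 3 (adjusted p = 0.0641).

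The largest number of calls lay between young co-culture and young ECM, with 8 of 27 genes (29.6%), 5 higher and 3 lower, where 15.9% of all genes passed. INSIG1 was 1.79 ± 0.16 higher (adjusted p = 2.66e-07), DHCR7 1.16 ± 0.19 (adjusted p = 0.000266), SQLE 0.62 ± 0.12 (adjusted p = 0.000869) and HMGCS1, at 12.1, 11.7 and 13.4 CPM in young ECM, 0.70 ± 0.16 (adjusted p = 0.00393). These 4 calls held without any 1 of the 6 libraries, and that of DHCR7 also with replicate 1 included (1.37, adjusted p = 0.0265). FDFT1, with 79.8, 105 and 87.4 CPM in young ECM, was 0.40 ± 0.13 higher (adjusted p = 0.0363) although 1 library of each group overlapped. Lower were HSD17B7, a sterol 3-keto reductase (-0.59 ± 0.17, adjusted p = 0.0186), PMVK (-0.61 ± 0.18, adjusted p = 0.027) and SOAT1, which esterifies cholesterol for storage (-0.55 ± 0.17, adjusted p = 0.0355). HSD17B7 had 11.5, 17.9 and 12.5 CPM in young ECM and 7.81, 9.86 and 10.5 in young co-culture, and without young ECM replicate 3, whose ribosomal protein share was 12.3%, its difference was -0.35 (adjusted p = 0.167). PMVK had 28.0, 41.0 and 29.8 CPM in young ECM. SOAT1 had 59.0, 39.0 and 61.7 CPM in young ECM and 40.3, 31.3 and 38.9 in young co-culture, with overlap, and passed in 1 of 6 fits that left out a library. FDFT1 and PMVK each passed in 2 of those 6 (adjusted p up to 0.162 and 0.173). Leaving out any 1 of the 3 co-culture libraries gave a count of 5.

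Between senescent co-culture and senescent ECM 3 of 27 genes passed (11.1%), 1 higher and 2 lower, where 12.7% of all genes passed. INSIG1 was 1.27 ± 0.16 higher (adjusted p = 1.14e-05), without any 1 library too. TM7SF2, at 3.08, 3.73 and 2.05 CPM in senescent ECM, was 0.66 ± 0.21 lower (adjusted p = 0.0412), and HSD17B7, at 10.8, 12.2 and 13.9 CPM in senescent ECM and 9.11, 7.64 and 7.44 in senescent co-culture, was 0.59 ± 0.17 lower (adjusted p = 0.0216). TM7SF2 and HSD17B7 each passed in 2 of 6 fits that left out a library (adjusted p up to 0.242 and 0.0908), and each such fit ended at least 1 of both calls, giving a count of 1 to 2. HSD17B7 and TM7SF2 both had their lowest library in senescent co-culture. HSD17B7 had 9.83, 12.3 and 11.4 CPM in control, 13.7, 13.6 and 11.8 in young CM and 9.69, 10.2 and 9.23 in senescent CM. TM7SF2 had 3.11, 3.61 and 2.78 CPM in young ECM, 3.74, 3.22 and 3.05 in young CM, 2.41, 2.22 and 2.52 in senescent CM and 2.55, 2.62 and 3.03 in young co-culture. PMVK had 31.4, 33.9 and 32.8 CPM in senescent ECM, 27.1, 31.0 and 26.8 in senescent CM and 24.0, 28.6 and 18.5 in senescent co-culture. HMGCS1 had 12.3, 10.9 and 14.8 CPM in senescent ECM, 12.9, 15.5 and 20.6 in young CM and 13.9, 12.9 and 17.5 in senescent CM. SQLE had 49.2, 42.4 and 44.6 CPM in senescent CM and 45.5, 47.6 and 49.9 in senescent co-culture. In the other pathway list 11 of 32 genes were higher and 1 lower with young MSCs, and 12 higher and 1 lower with senescent MSCs, in co-culture against ECM, led with young MSCs by SCD (2.19 ± 0.24, adjusted p = 3.69e-06) and with senescent MSCs by ABCG1 (2.50 ± 0.28, adjusted p = 4.04e-06). The gene lower in both was NR1H2, which encodes LXR-beta, by 0.62 and 0.50; the senescent call passed in 1 of 6 fits that left out a library (adjusted p up to 0.188).

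Of the transport, storage and fatty acid genes, SOAT1 passed in the 1 comparison above and the others in none. NPC2 ran from 70.4 CPM in senescent co-culture to 137 CPM in young ECM replicate 3, and NPC1, the lysosomal sterol exporter, from 38.2 CPM in control replicate 3 to 105 CPM in senescent CM replicate 2, with no call for either in any of the 18 comparisons. FASN had 344, 120 and 229 CPM in control, 336, 203 and 328 in young co-culture and 255, 309 and 273 in senescent co-culture. In 6 of the 7 groups the library with the highest ribosomal protein share (among replicates 2 to 4) had the lowest FASN, the lowest SREBF2 and the lowest SOAT1 of its group, and in 6 of 7 it had the highest FDPS and the highest NSDHL. The part of that share in the comparisons was not tested.

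Replicate 1 of the 5 groups without MSCs lay above the range of replicates 2 to 4 for 15 (control), 19 (young ECM), 18 (senescent ECM), 21 (young CM) and 18 (senescent CM) of the 27 genes. The 28 genes took 0.152% to 0.211% of counts there, against 0.104% to 0.141% in replicates 2 to 4. In young co-culture replicate 1 lay outside that range for all 27 genes, above for 13 and below for 14. Its log2 ratio to the mean of replicates 2 to 4 was -3.89 for FASN, -2.24 for SOAT1 and -2.09 for NPC1, whose merged exons span 9364, 7005 and 10102 bases, and 2.51 for EBP and 2.30 for PMVK, which span 2409 and 1280 bases. ACACA, the longest at 13008 bases, had -1.57. The part of transcript length was not tested.

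**Figure D5:**
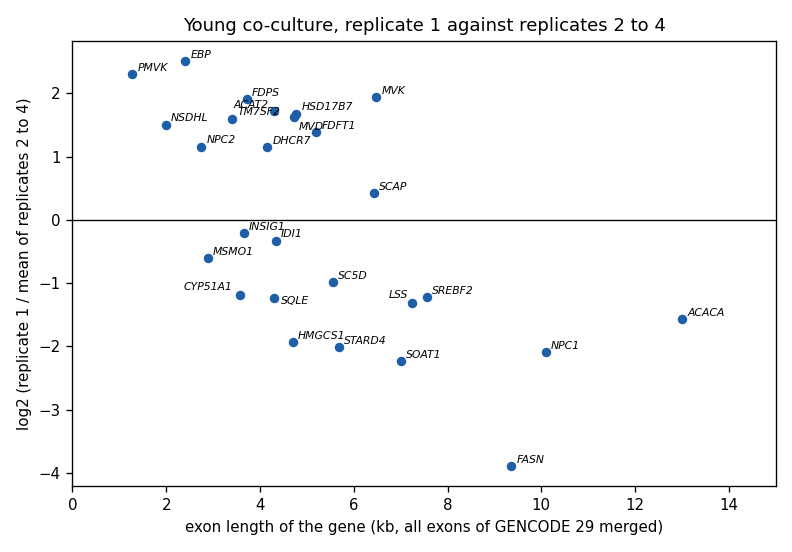
Log2 ratio of replicate 1 to the mean of replicates 2 to 4 in young co-culture (vertical axis) against the merged exon length in kilobases (horizontal axis) for the 27 tested genes, 1 point a gene. EBP and PMVK, at 2.51 and 2.30, lie at the short end, and FASN, at -3.89, near the long end.

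Some levels carry a limit of counting. Of the merged exon bases of CYP51A1, the lanosterol demethylase, 79.4% are shared with another gene on the same strand in GENCODE 29, so its level is uncertain. On the opposite strand other genes cover 52.3% of ACAT2, 18.6% of FDPS, 15% of HMGCS1 and 14.8% of IDI1, and the strand setting of the counting is not given in the sources used here.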

How the data were processed

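Per the labels, poly(A) selection and a directional kit were used for all 27 libraries, sequenced in 1 run. The authors deposited 1 table of whole-number read counts per gene, not normalised. The submitters' processing notes name HISAT2 2.2.1, featureCounts 2.0.1 and the build GRCh38 (hg38). Which annotation release and strand setting were used, and how reads with several matches were treated, is not given in the sources used here. Of 60648 gene entries, 44 Y copies of pseudoautosomal genes were left out, symbols were found for 60462 of the other 60604, and 0 columns belonged to other samples. The cell type label (endothelial) and the extraction protocol (RNA of MSCs) disagree, and the libraries are described by the label.

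Genes were tested with edgeR 4.0.16 in R 4.3.3 (quasi-likelihood F-test, 2-sided; filterByExpr with a minimum count of 10; TMM; Benjamini-Hochberg adjustment over all genes tested; threshold 0.05) on replicates 2 to 4. Control, ECM and CM were fitted together (18015 genes), control and co-culture together (17729 genes), and all groups together (18492 genes) for co-culture against ECM or CM and for differences between routes, giving 18 comparisons. Log2 fold changes carry standard errors derived from the estimate and its F statistic. The 95% intervals use normal quantiles, so they can be narrower than the F-test implies. Levels are CPM with TMM over all 27 libraries. Deviations of same-numbered libraries from their group means correlated over 0.1 in 40 of 63 pairs (-0.208 to 0.612), and in all 3 pairs for 5 of 15 comparisons between groups: control with young ECM, young CM and young co-culture, young co-culture with young ECM, and senescent CM with senescent ECM. The labels do not say what the numbers share. The script was tested on simulated data. Total counts per library, 66320519 to 111512357, set the counting precision, and genes under 1 CPM, such as ACACA, are measured least well.

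The members, the gene lists and the tests were chosen with earlier results of these data known. Named in full were members past the threshold in any comparison (up to 6 by adjusted p) and INSIG1, HMGCS1, SQLE, IDI1 and SREBF2, and other pathway genes where past the threshold (up to 6); FDFT1, SOAT1, STARD4, MSMO1, SCAP, FASN and further pathway genes were added after their values were seen. Alternatives were all replicates, a replicate block, DESeq2 1.42.0, other scalings (RLE, library totals, endothelial markers), no filter, a fit of only the groups compared, and each library left out. Promoter sequences are RefSeq's (GRCh38.p14), and positions and exon lengths those of GENCODE 29.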

Additional observations from a re-analysis of the deposited data

Results flagged for a closer look

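Levels in CPM were screened, for each of the 27 tested genes in each group of 4 libraries, for a library whose gap to its nearest neighbour was large against the range of the group (Dixon's 95% criterion). Of 162 such sets 34 were flagged, where chance flags about 1 in 20. Replicate 1 of young co-culture held 13 of them: ACAT2 at 100.6, HMGCS1 at 5.336, MVK at 84.92, PMVK at 107.6, MVD at 72.64, FDPS at 458.3, FDFT1 at 316.2, SQLE at 24.05, TM7SF2 at 8.267, NSDHL at 112.8, HSD17B7 at 30.0, EBP at 98.93 and STARD4 at 17.06 CPM. HMGCS1, SQLE and STARD4 lay below the other libraries of their group and the other 10 above.

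Replicate 1 of the groups without MSCs held 15, each above the other libraries. INSIG1 stood at 52.61 CPM in control, 69.38 in young ECM, 67.29 in senescent ECM and 96.22 in young CM. MVK, the mevalonate kinase, stood at 36.1 in young ECM, 35.2 in senescent ECM, 48.27 in young CM and 39.16 CPM in senescent CM. PMVK stood at 55.06 in senescent ECM and 53.13 CPM in senescent CM, MVD at 37.99 in young ECM and 48.83 CPM in senescent CM, and LSS at 12.95 in senescent ECM and 14.64 CPM in senescent CM. SOAT1 stood at 82.31 CPM in senescent ECM.

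The other 6 were in libraries used in the comparisons. In replicate 2 of young CM, SC5D lay at 19.41 and STARD4 at 36.75 CPM, both below the rest. In control replicate 3 SCAP lay at 56.59 CPM, below the rest. In young ECM replicate 3 NPC2 lay at 136.7 CPM, above the rest. Replicate 4 of young co-culture was high for INSIG1, at 56.69 CPM, and for ACACA, at 1.458 CPM. Those 3 libraries, young CM replicate 2, control replicate 3 and young ECM replicate 3, had ribosomal protein shares of 12%, 10.3% and 12.3% of counts. No difference of senescence effects between routes passed its test for these genes.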

How the results depend on the processing

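The numbers of members called are small and move with the processing. The share of all genes called in each alternative setting is not given here or above. Counts from those settings therefore cannot be set against the other genes. The same holds for the counts at an unadjusted p. The block was fitted over all groups of a fit, also those whose same-numbered libraries did not all deviate together. With the replicate block the counts were 2 on young ECM, 1 on senescent ECM, 1 with senescent CM and 4 in young co-culture against control, 5 for young CM against ECM, 9 for young co-culture against CM, 1 for senescent co-culture against CM and 5 for senescent co-culture against ECM. In the 5 comparisons whose same-numbered libraries deviated together, the block added the calls given for young ECM and young co-culture against control, took young co-culture against ECM from 8 to 11, and left counts of 0 for young CM against control and 2 for senescent CM against ECM; elsewhere the samples share only a number, although 19 of 21 libraries were on average nearest to their own. DESeq2 gave 2, 1, 1, 4 and 3 for young ECM, senescent ECM, senescent CM, young and senescent co-culture against control, 2 for senescent against young co-culture and 1 for senescent co-culture against CM. RLE scaling and library totals each gave 2 for young co-culture against control. Without the filter on low counts the counts were 2 for young ECM, 1 for young CM, 3 and 2 for young and senescent co-culture against control, 1 each for senescent against young ECM, senescent against young CM, senescent co-culture against CM and the differences of co-culture from CM and from ECM, and 2 for senescent against young co-culture; ACACA was among them in all but 2, young co-culture against control and senescent against young co-culture. Fitting only the groups compared gave 1 for young CM against ECM, 2 and 1 for young and senescent co-culture against CM, and 4 and 5 against ECM.

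With replicate 1 included the count was 0 for both co-cultures against control, both CM against ECM comparisons, young co-culture against CM and senescent co-culture against ECM, and 1 (DHCR7) for young co-culture against ECM. In young co-culture against CM the sign then turned for EBP (0.494), PMVK (0.27), FADS2 (-0.338), SCD (-0.357) and the members' median (0.158), and against ECM for HSD17B7 (0.347) and PMVK (0.391). Scaling by endothelial markers gave 24 and 27 members called for young and senescent co-culture, all lower. That scaling also lowers the median of all genes, and the share of all genes called with it is not given here. With young MSCs the sign turned for ACSL3 (-0.283), FADS1 (-0.485), FADS2 (-0.253), GRAMD1B (-0.182) and the median (-0.939). With senescent MSCs it turned for INSIG1 (-0.386), MYLIP (-0.04) and RNF145 (-0.564). Medians near 0 also turned: to 0.058 for senescent CM without control replicate 4, to 0.026 (library totals) and 0.007 (without young co-culture replicate 2) for young co-culture against CM, and to 0.025 for senescent co-culture against ECM without senescent co-culture replicate 4; over all libraries left out they ran from -0.071 to 0.058, -0.104 to 0.007 and -0.088 to 0.025 in these 3 comparisons. The cause was not tested in any of these.

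Leaving out 1 library gave counts of 0 to 1 for young ECM, 1 to 5 for young and 0 to 3 for senescent co-culture against control, 1 to 8 for young and 1 to 1 for senescent CM against ECM, 1 to 10 for young co-culture against CM, 5 to 8 for young and 1 to 2 for senescent co-culture against ECM, and 0 to 0 in the other 7 comparisons between groups; for the 3 differences between routes this was not run.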
